A study of Homo sapiens with 9 samples.

Results

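The Krüppel-like factors (KLF) described here are KLF2, KLF3, KLF4, KLF5, KLF6, KLF7, KLF9, KLF10, KLF11 and KLF13. They were read on every gene probe of the array whose accession is a RefSeq transcript of one of these 10 genes, which gave 11 probes, 2 for KLF6 and 1 for each of the others. The array carried probes of 35010 genes in all, where transcripts without a current RefSeq gene name were counted under their array identifier. Of these, 21817 passed the filter on dim probes and were tested, 8 of the 10 among them. Counts and shares of all genes below include such unnamed transcripts. Expression was measured in A2780, a cell line established from a human ovarian carcinoma. The 3 groups differed in DIG-MSK: untreated cultures, cultures given 8 nM and cultures given 80 nM, each for 24 h. The 80 nM arrays also lay on a separate slide. Each group had 3 arrays, each hybridized with RNA of a separate biological replicate. DIG-MSK is an analogue of the antibiotic mithramycin A, a compound whose target is DNA rich in C and G, which it binds in the minor groove. All groups come from 1 cell line and 1 time of treatment.

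KLF proteins are transcription factors with a DNA-binding domain of C2H2 zinc fingers that is shared with Sp1 and its relatives, and they bind GC boxes and CACCC boxes in promoters. Several of them, such as KLF2, KLF4, KLF5, KLF6 and KLF7, are best known as activators, KLF3 recruits the corepressor CtBP, and KLF9, KLF10, KLF11 and KLF13 recruit the corepressor Sin3A. Since Sp and KLF proteins compete for the same boxes, the balance among them is known to set the output of many GC-rich promoters.

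RefSeq promoter windows (GRCh38.p14, from 250 bases before to 50 bases after an annotated start, 300 bases in all) were given for 8 of the 10 genes, in 13 windows; KLF3 and KLF10 had none. The GC box was searched as GGGCGG and the CACCC box as CACCC, each on both strands. A GC box lay in 8 of the 13 windows, which belong to 7 genes, and in 45.0% of all 35116 RefSeq windows; a CACCC box lay in 7 of the 13 windows and in 59.9% of all windows. Only 1 GC box of these windows overlapped a CACCC box, in KLF13. The 250 bases before the start are printed, 5′ to 3′ on the strand of the gene with GC boxes of either strand in capitals, for 4 genes with a single window whose values are described most closely below: KLF2 (chr19:16324576-16324825, plus strand), KLF6 (chr10:3785210-3785459, minus strand), KLF9 (chr9:70414658-70414907, minus strand) and KLF13 (chr15:31326585-31326834, plus strand).
KLF2: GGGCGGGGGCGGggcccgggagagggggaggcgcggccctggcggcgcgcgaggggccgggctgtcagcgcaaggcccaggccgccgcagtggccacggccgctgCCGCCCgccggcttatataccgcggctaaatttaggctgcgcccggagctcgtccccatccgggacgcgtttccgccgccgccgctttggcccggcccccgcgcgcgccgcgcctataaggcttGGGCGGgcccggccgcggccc
KLF6: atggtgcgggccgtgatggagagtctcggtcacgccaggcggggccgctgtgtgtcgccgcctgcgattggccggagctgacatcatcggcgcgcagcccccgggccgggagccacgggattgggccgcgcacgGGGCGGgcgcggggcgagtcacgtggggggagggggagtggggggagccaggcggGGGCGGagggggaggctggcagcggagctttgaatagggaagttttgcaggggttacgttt
KLF9: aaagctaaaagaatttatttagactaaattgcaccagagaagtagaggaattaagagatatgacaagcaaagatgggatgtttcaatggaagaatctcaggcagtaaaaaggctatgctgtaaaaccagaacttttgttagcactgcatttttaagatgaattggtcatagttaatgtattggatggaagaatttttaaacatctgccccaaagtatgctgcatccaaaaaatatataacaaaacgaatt
KLF13: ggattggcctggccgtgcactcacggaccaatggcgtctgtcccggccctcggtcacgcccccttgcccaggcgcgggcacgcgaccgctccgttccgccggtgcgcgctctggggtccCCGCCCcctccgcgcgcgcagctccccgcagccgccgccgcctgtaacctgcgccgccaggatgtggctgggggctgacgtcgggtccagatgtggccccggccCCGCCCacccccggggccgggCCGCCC
Over the whole windows, KLF2 held 6 GC boxes, 4 of them in the printed bases, with 80.7% G and C. KLF6 held 2 GC boxes and KLF13 held 3. The window of KLF9 held neither box and 32.7% G and C, the lowest share of the 13 windows, whose median was 70.0% against 58.7% over all windows. These are matches of letters in a fixed window and do not show what binds there.

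The levels given here are log2 intensities relative to the 75th percentile of the same array, so a level of 0 is the intensity below which 75% of the spots lay. The arrays of one group correlated at 0.9891 to 0.9957 across the genes tested, 24814 to 27151 probes per array were well above background, and no gene probe was saturated. The untreated and 8 nM arrays lay on slide 1 and all 80 nM arrays on slide 2, so the effect of 80 nM and the difference between slides cannot be told apart, and the same holds for 80 nM against 8 nM. The negative controls had a mean net signal of 31.1 to 38.6 on slide 1 and of 22.1 to 22.7 on slide 2. Scaling to the 10 spike-in probes turned the log2 change of the median gene at 80 nM from 0.08 into -0.20, and the share of called genes that were lower from 46.5% to 72%. For 80 nM against 8 nM, the median went from 0.12 to -0.24 and the share from 42.2% to 77.1%. At 8 nM the share went from 40.1% to 21.4% with the spike-in probes and to 30.3% with quantile normalization. Of the marker lists, 3 of 4 epithelial genes (KRT8, KRT18 and EPCAM, but not CDH1) and 2 of 2 mesenchymal genes (VIM and CDH2) passed the filter, and so did 3 of 6 markers of blood and endothelial cells (CD14, CDH5 and PTPRC, the last on 1 of its 4 probes). Some of these markers differed between the groups: EPCAM had log2 changes of 0.90 with 8 nM (adjusted p = 0.029) and -0.93 with 80 nM (adjusted p = 0.0065), and CDH2 one of -2.33 with 80 nM (adjusted p = 5.1e-06). Their part in the KLF values was not tested. None of the 3 Müllerian and ovarian carcinoma markers passed: WT1 and MUC16 were not well above background on any array and PAX8 was on 1 array of each group.

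On the probes used, KLF2 was the one gene of the 8 tested that changed by the rule of the study. That rule asks for a fold change of 1.5 or more, or of 0.67 or less, and for p under 0.05 before adjustment. KLF2 rose 2.12-fold at 80 nM. The dimmer probe of KLF6, tested by itself, also passed the rule at 80 nM, with a log2 change of -1.10 (limma adjusted p = 0.001). At 8 nM, 0 of the 8 passed upwards and 0 downwards, where 4.25% and 2.84% of all genes tested did. At 80 nM, 1 of 8 was up-regulated and 0 were down-regulated, against 18.8% and 16.3% of all genes. For 80 nM against 8 nM the counts were again 1 and 0, against 19.5% and 14.2% of all genes. The calls were the same with an adjusted p (limma, Benjamini-Hochberg over all genes tested). Without regard to fold, the adjusted p was under 0.05 for 1 of 8 at 8 nM (13.6% of all genes), for 2 of 8 at 80 nM (59% of all genes) and for 4 of 8 between the concentrations (57.6% of all genes). All 3 arrays of one group lay on one side of the other group for 3 of 8 genes at 8 nM (34.2% of all genes), for 3 of 8 at 80 nM (72% of all genes) and for 4 of 8 between the concentrations (64.9% of all genes). The median log2 change of the 8 genes was 0.02 at 8 nM, 0.02 at 80 nM and -0.001 between the concentrations, beside -0.06, 0.08 and 0.12 for all genes. The filter kept genes that were well above background in at least 1 group, so the 8 genes are not all 10.

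**Figure D1:**
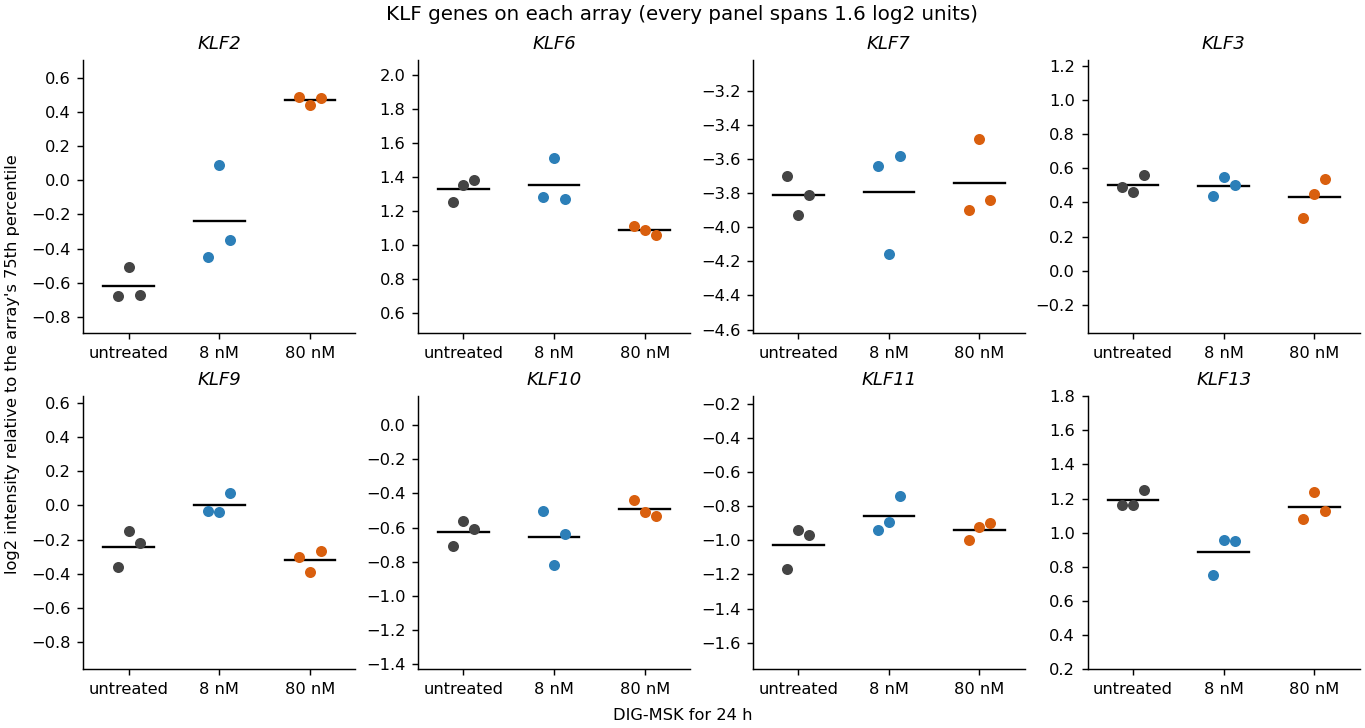
Level of the 8 KLF genes tested on each of the 9 arrays, as log2 intensity relative to the 75th percentile of the array, by the concentration of DIG-MSK in nM. Points are arrays and bars are means of 3 arrays; each panel spans the same range with its own zero. The 80 nM arrays of KLF2 (0.44 to 0.49) stood above all others of that gene, while those of KLF6 (1.06 to 1.11) stood below all others of that gene.

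KLF2, an activator known for the response of endothelium to blood flow and for the quiescence of T lymphocytes, was read as the mean of 10 spots (NM_016270). Its level was -0.68, -0.51 and -0.67 on the untreated arrays, -0.45, 0.09 and -0.35 on the 8 nM arrays, and 0.49, 0.44 and 0.48 on the 80 nM arrays. The 3 groups did not overlap and followed the order of the concentrations, with replicate 2 of the 8 nM group well above its fellows. At 80 nM the log2 change was 1.09 (SE 0.13, 95% confidence interval 0.78 to 1.39, limma adjusted p = 2e-04), a value above that of 92.9% of the genes tested. Between 80 nM and 8 nM it was 0.71 (SE 0.13, adjusted p = 0.0022), or 1.63-fold. At 8 nM against untreated, KLF2 was 0.38 higher (95% confidence interval 0.08 to 0.69, adjusted p = 0.096), 1.30-fold and thus below the fold limit, and 0.22 higher without replicate 2 of the 8 nM group. With the spike-in scaling the change at 80 nM was 0.81 (adjusted p = 0.011) and that between the concentrations 0.35 (adjusted p = 0.23), which ended the latter call. Relative to the median of all genes, KLF2 was 1.01 higher at 80 nM and 0.59 higher at 80 nM than at 8 nM, a difference that scaling each array by 1 factor cannot move. RNA was taken from whole cultures, in which more cells with a transcript and more transcript per cell cannot be told apart.

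KLF6, an activator that has been studied as a candidate tumor suppressor, was lower at 80 nM on both of its probes, but by very different amounts. On the probe of NM_001300 the level was 1.25, 1.35 and 1.38 without the drug, 1.28, 1.51 and 1.27 at 8 nM, and 1.11, 1.09 and 1.06 at 80 nM. The untreated and 8 nM arrays overlapped, and all 80 nM arrays lay below both. The log2 change at 80 nM was -0.24 (SE 0.08, 95% confidence interval -0.43 to -0.05, adjusted p = 0.035), a 1.18-fold reduction that did not reach the fold limit. That p rose to 0.069 to 0.10 without untreated replicate 2 or 3 or without any 1 of the 80 nM arrays. Between 80 nM and 8 nM it was -0.26 (adjusted p = 0.026, and 0.054 to 0.077 without any 1 of the 80 nM arrays), and at 8 nM it was 0.02 (95% confidence interval -0.17 to 0.21). The probe of NM_001160124 gave -4.41, -4.64 and -4.50 on the untreated arrays, -4.48, -4.91 and -4.63 at 8 nM and -5.33, -5.50 and -6.00 at 80 nM, where it was well above background on 2 of 3 arrays. With every probe tested by itself, this one had a log2 change of -1.10 (adjusted p = 0.001) at 80 nM, and its change between the concentrations was -0.94 (adjusted p = 0.0025). That size differed with the processing: the change at 80 nM was -0.27 with normexp on the median spot signal with an offset of 50, and -0.45 in the authors' normalized values. On the lower scale of this probe, the lower negative controls of slide 2 moved with the result, and their part in it was not tested. When the 2 probes were averaged, KLF6 was called down-regulated at 80 nM, by -0.67 on the log2 scale.

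**Figure D2:**
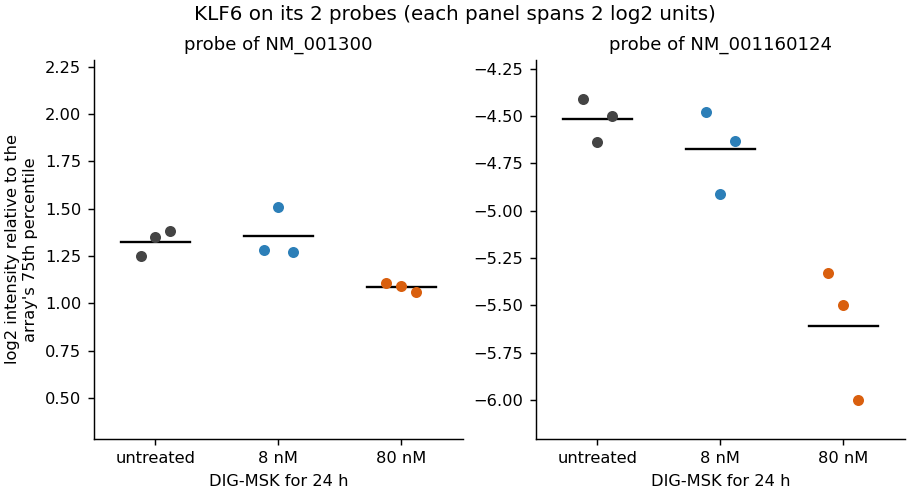
Level of KLF6 on its 2 probes, left the probe of NM_001300 and right that of NM_001160124, as log2 intensity relative to the 75th percentile of the array; points are arrays, bars are means of 3 arrays and both panels span 2 log2 units. The 80 nM arrays were lowest on both probes, with a change of -0.24 on the left and -1.10 on the right; heights are not comparable between the probes.

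The other activators gave no call. KLF7, which is known from the development of neurons, was read on NM_003709 at -3.70, -3.93 and -3.81 without the drug, at -3.64, -4.16 and -3.58 at 8 nM and at -3.90, -3.48 and -3.84 at 80 nM. All 3 groups overlapped, and the log2 change at 80 nM was 0.07 with a 95% confidence interval of -0.32 to 0.47, the widest of the 8 genes. With the spike-in scaling this change was -0.21. KLF4, a factor of epithelial differentiation and of reprogramming to pluripotency, and KLF5, a factor of proliferating epithelium, were not well above background on any of the 9 arrays. Their readings lay between -7.73 and -5.83 for KLF4 (NM_004235) and between -8.11 and -5.52 for KLF5 (NM_001730), and they were not tested.

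KLF3, which represses through CtBP, gave nearly the same level in each group. It was 0.49, 0.46 and 0.56 on the untreated arrays, 0.44, 0.55 and 0.50 at 8 nM, and 0.31, 0.45 and 0.54 at 80 nM. The log2 change was -0.01 at 8 nM (95% confidence interval -0.19 to 0.18) and -0.07 at 80 nM (-0.25 to 0.12). With the main scaling these intervals leave out a change of 1.5-fold in either direction. With the spike-in scaling the change was -0.345 at 80 nM and -0.416 between the concentrations.

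Of the factors that recruit Sin3A, KLF9 and KLF13 stood apart from untreated cells at 8 nM, in opposite directions. At 80 nM they lay near the untreated level with the main scaling. With the spike-in scaling their log2 changes at 80 nM were -0.36 and -0.31 (adjusted p at least 0.29 for both). KLF9, a gene induced by glucocorticoids and thyroid hormone in many tissues, was read on NM_001206 at -0.36, -0.15 and -0.22 without the drug, at -0.03, -0.04 and 0.07 at 8 nM, and at -0.30, -0.39 and -0.27 at 80 nM. Its 8 nM arrays were above all others, while the untreated and 80 nM arrays overlapped. The log2 change was 0.24 at 8 nM (SE 0.08, adjusted p = 0.081) and -0.08 at 80 nM (95% confidence interval -0.26 to 0.10). Between the concentrations KLF9 was 1.25-fold lower at 80 nM (log2 change -0.32, 95% confidence interval -0.50 to -0.14, adjusted p = 0.0086), and -0.68 with the spike-in scaling (adjusted p = 0.053). KLF13, known as an activator of the chemokine gene CCL5 in T lymphocytes, was read on NM_015995 at 1.16, 1.16 and 1.25 without the drug, at 0.75, 0.96 and 0.95 at 8 nM, and at 1.08, 1.24 and 1.13 at 80 nM. Here the 8 nM arrays were below all others, and the untreated and 80 nM arrays overlapped. The log2 change of KLF13 was -0.30 at 8 nM (SE 0.08, adjusted p = 0.046), or 1.23-fold lower and short of the fold limit, and -0.04 at 80 nM (95% confidence interval -0.22 to 0.15). This adjusted p at 8 nM was not under 0.05 in 9 of 11 alternatives in processing, where it reached up to 0.89, and the log2 change was -0.319 to -0.224. With the replicate number as a block it was 0.06, and it was 0.062 to 0.14 when any 1 array other than 8 nM replicate 2 was left out. Between the concentrations KLF13 was 0.27 higher at 80 nM (adjusted p = 0.023), a direction that turned with the spike-in scaling (-0.09, adjusted p = 0.79); without 8 nM replicate 1, 80 nM replicate 2 or 80 nM replicate 3 that p was 0.055 to 0.083.

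KLF10 and KLF11, both first described as genes induced early by TGF-beta, did not pass the test. KLF10 (NM_005655) was -0.71, -0.56 and -0.61 without the drug, -0.50, -0.82 and -0.64 at 8 nM and -0.44, -0.51 and -0.53 at 80 nM. Its 80 nM arrays lay just above the untreated ones and overlapped those at 8 nM. The log2 change at 80 nM was 0.14 (95% confidence interval -0.08 to 0.35, adjusted p = 0.24). KLF11 (NM_003597) was -1.17, -0.94 and -0.97 without the drug, -0.94, -0.89 and -0.74 at 8 nM and -1.0, -0.92 and -0.90 at 80 nM. These groups overlapped. The log2 change was 0.17 with 8 nM (adjusted p = 0.24) and 0.09 with 80 nM (95% confidence interval -0.12 to 0.29). With the spike-in scaling the changes at 80 nM were -0.145 for KLF10 and -0.195 for KLF11.

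**Figure D3:**
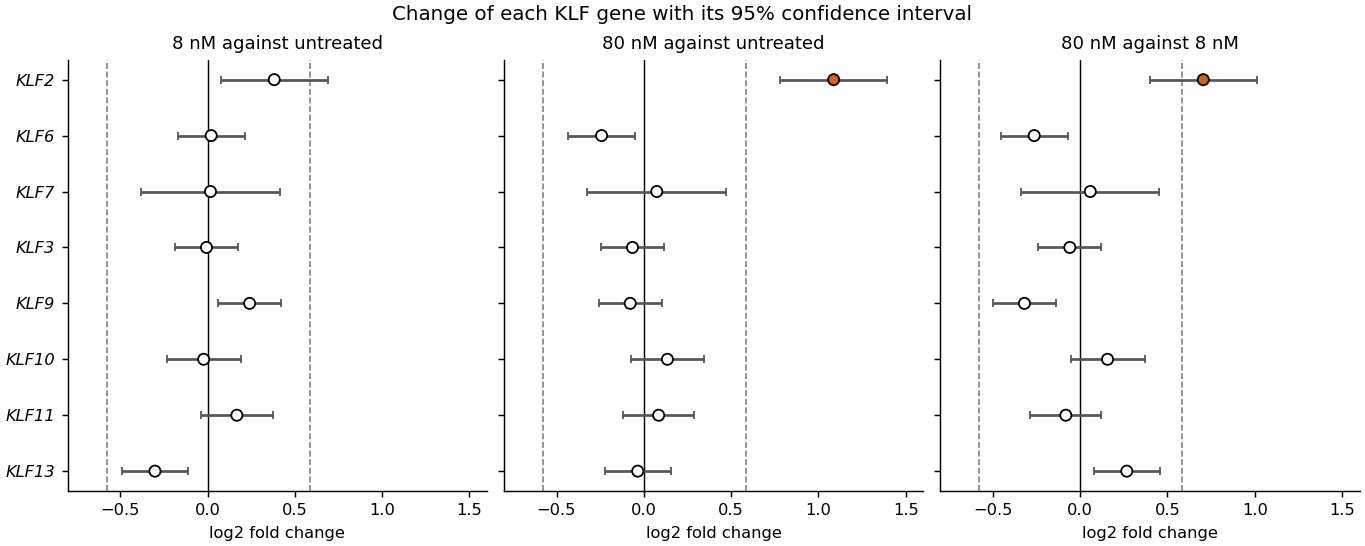
Log2 fold change of the 8 KLF genes tested in the 3 comparisons, with the 95% confidence interval from limma; dashed lines mark 1.5-fold and 0.67-fold, and filled points are genes called by the rule of the study. KLF2 was called at 80 nM (1.09) and between the concentrations (0.71), and all other points lay between the dashed lines.

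The genes whose levels followed those of KLF2 most closely over the 9 arrays, among 12697 genes well above background on all of them, were GPER1 (Pearson r = 0.9917), GCNA (0.9902), NRG2 (0.9901), GABARAP (0.9897) and LMNA (0.9881). Their log2 changes were 0.23 to 0.61 at 8 nM and 0.76 to 1.42 at 80 nM, positive at both. For KLF6, which had the largest reduction at 80 nM on its brighter probe, the closest were RPRD2 (0.9842), HTT (0.9717), PKP3 (0.9689), TIGD1 (0.9687) and EBLN2 (0.968), with log2 changes at 80 nM of -0.59 to -0.27. The 9 arrays share their groups and slides, so these correlations are a description.

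Among the other KLF genes, 5 of 7 on the array were tested. KLF16 was the one up-regulated at 80 nM and none was down-regulated, beside 18.8% and 16.3% of all genes. KLF16, which like KLF9 and KLF13 recruits Sin3A, was 2.86, 2.94 and 2.94 without the drug, 2.83, 2.67 and 2.62 at 8 nM and 3.53, 3.61 and 3.53 at 80 nM. The 80 nM arrays were above all others, and the log2 change was 0.65 (SE 0.08, adjusted p = 0.00016) at 80 nM and 0.85 (adjusted p = 3.8e-05) between the concentrations. With the spike-in scaling these were 0.37 (adjusted p = 0.26) and 0.49 (adjusted p = 0.13). KLF14 was lower at 80 nM than at 8 nM, with a log2 change of -0.83 (adjusted p = 0.00021; -0.48 with normexp, under the fold limit), and had means of -3.43 without the drug, -3.06 at 8 nM and -3.90 at 80 nM. KLF1, KLF15 and KLF17 were not called in any comparison, and KLF8 and KLF12 were not well above background on any array.

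The SP genes encode the nearest relatives of the KLF proteins, and 9 of 9 were tested. None was up-regulated and 3 were down-regulated at 80 nM, namely SP5, SP6 and SP8, beside 18.8% and 16.3% of all genes. SP6 had a log2 change of -1.09 (adjusted p = 0.012), which was -0.71 without untreated replicate 3 and -0.63 with normexp, and SP8 one of -1.06 (adjusted p = 0.0055). SP5, a target of Wnt signaling, was well above background on all untreated arrays and on none of the 80 nM arrays, and it was at least 1.53-fold lower (adjusted p = 0.0012); this bound sets the mean of the bright group against the lowest signal that was well above background on the dim arrays. Such bounds hold for the main processing: with normexp the log2 change of SP5 was -0.46, under the fold limit. At 8 nM, SP8 was the 1 of 9 SP genes called, as down-regulated, beside 2.84% of all genes. Its log2 change was -0.61 (unadjusted rule, adjusted p = 0.13) and -0.30 without replicate 2 of the 8 nM group. SP1 and SP3, the broadly expressed members, were not called: their log2 changes at 80 nM were -0.16 (adjusted p = 0.28) and 0.00 (adjusted p = 1). Nor were SP2, SP4 and SP9 called in any comparison, while SP7 was 0.93 higher at 80 nM than at 8 nM (adjusted p = 0.0054), or 0.57 higher with the spike-in scaling (adjusted p = 0.13). Of the EGR genes and WT1, which bind related GC-rich elements, 3 of 5 were tested and 2 were down-regulated at 80 nM, beside 16.3% of all genes. EGR1 had a log2 change of -0.85 (adjusted p = 0.0018). EGR2 fell at least 2.74-fold (adjusted p = 2e-07), while its log2 change was -0.59 with normexp. EGR4 was not called.

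Of 14 corepressor and coactivator genes, 2 were up-regulated and 3 down-regulated at 80 nM, beside 18.8% and 16.3% of all genes. CTBP2, whose product is a partner of KLF3, had levels of 5.37, 4.90 and 5.15 without the drug, 4.45, 4.76 and 4.48 at 8 nM and 3.58, 3.55 and 3.58 at 80 nM. The groups did not overlap, and the log2 change was -1.57 at 80 nM (SE 0.13, adjusted p = 2.2e-05). At 8 nM it was -0.58 (adjusted p = 0.022, and 0.058 with the replicate number as a block), which lay at the fold limit and missed it without untreated replicate 1 (-0.46) or 3 (-0.57), or without 8 nM replicate 1 (-0.52) or 3 (-0.54). A further probe of CTBP2 gave -0.72 at 8 nM and -1.24 at 80 nM. CTBP1 was not called on its brighter probe, and its other probe had a log2 change of 0.72 between the doses (adjusted p = 0.001). The acetyltransferase genes moved apart at 80 nM, CREBBP by -1.19 (adjusted p = 2.8e-05) and KAT2B by 1.46 (adjusted p = 3.4e-06; 0.87 with normexp), while EP300 was not called. In the Sin3 complex, SAP30 had a log2 change of -0.84 (adjusted p = 0.00013) and HDAC1 rose by 0.60 (adjusted p = 5.8e-05), while SIN3A (-0.31) and SIN3B (-0.31) did not reach the fold limit.

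**Figure D4:**
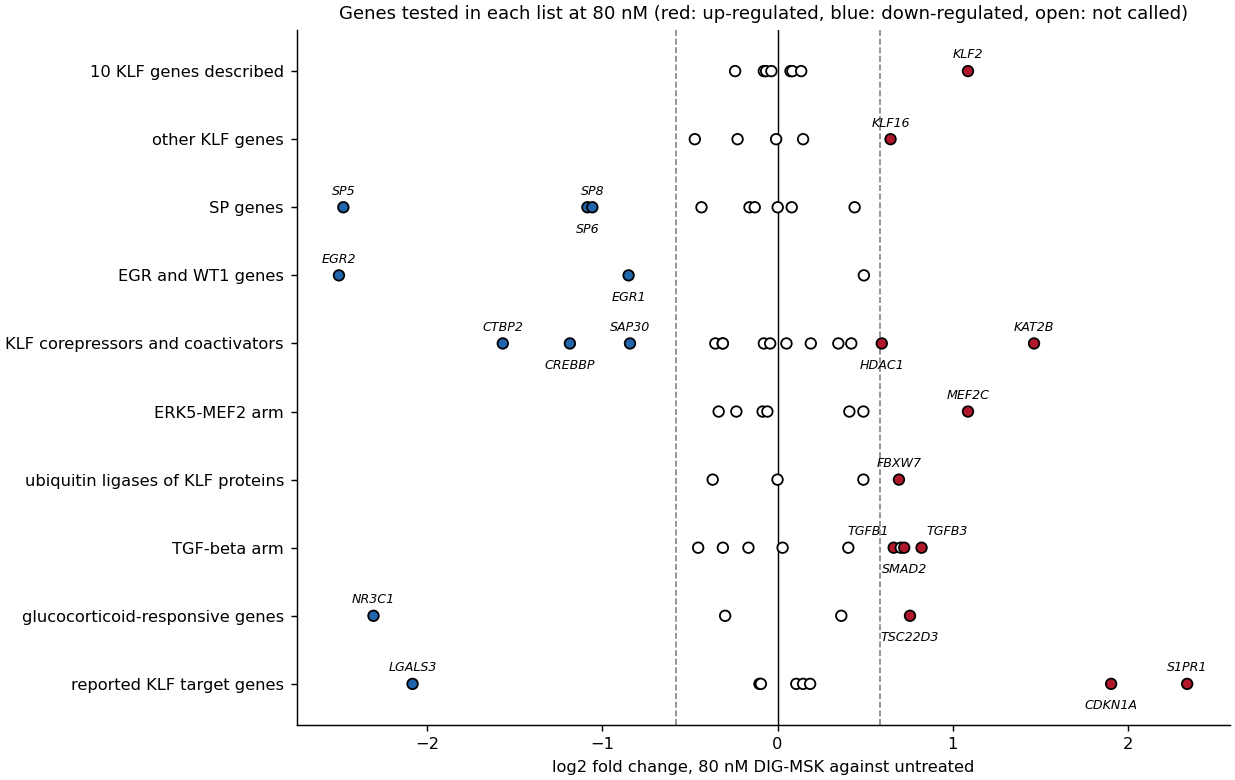
Log2 fold change at 80 nM DIG-MSK against untreated for each gene tested, by list; red points were up-regulated and blue points down-regulated by the rule of the study, open points were not called, and dashed lines mark 1.5-fold and 0.67-fold. KLF2 was the called gene of the first list, while the SP genes and the EGR and WT1 genes had only down-regulated calls; SP5, EGR2 and NR3C1 were not well above background on any 80 nM array, so their points are measured differences and not bounds.

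The arm of MAPK7 (ERK5) and the MEF2 factors is known to induce KLF2 and KLF4. On the probes used, 1 of its 7 genes was up-regulated at 80 nM and none down-regulated, beside 18.8% and 16.3% of all genes. The up-regulated gene was MEF2C, at 0.93, 0.85 and 0.90 without the drug, 0.58, 0.52 and 0.47 at 8 nM and 1.91, 2.03 and 1.99 at 80 nM. It rose by 1.09 on the log2 scale with 80 nM (adjusted p = 4.4e-06), while the change of -0.37 with 8 nM was under the fold limit (adjusted p = 0.0097). MAPK7 itself was 0.41 higher at 80 nM (adjusted p = 0.0016) and MEF2A 0.49 higher (adjusted p = 0.0017), both under the fold limit. The probes of MEF2D and MAP3K2 disagreed: the brighter ones gave -0.34 and -0.24 at 80 nM, under the fold limit, and the dimmer ones -0.69 (adjusted p = 0.00056) and -0.60 (adjusted p = 0.021), past it. MAP3K3 and MAP2K5 were not called. Of 4 ubiquitin ligase genes, 1 was up-regulated at 8 nM and 1 at 80 nM, beside 4.25% and 18.8% of all genes. At both concentrations it was FBXW7, whose product marks KLF2 and KLF5 for degradation. FBXW7 rose by 0.79 with 8 nM (adjusted p = 0.0056) and 0.69 with 80 nM (adjusted p = 0.0016), while WWP1, SIAH1 and VHL were not called.

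In the TGF-beta arm beside KLF10 and KLF11, 1 of 9 genes was up-regulated at 8 nM and 3 at 80 nM, beside 4.25% and 18.8% of all genes. SMAD3 rose with 8 nM, by 0.78 (adjusted p = 0.00066), and had a log2 change of -0.45 with 80 nM (adjusted p = 0.0012), under the fold limit. TGFB1, TGFB3 and SMAD2 were up-regulated at 80 nM, with log2 changes of 0.66, 0.82 and 0.72. TGFB2 was at least 2.09-fold higher at 80 nM than at 8 nM, where no array was well above background. Its 80 nM arrays read -5.22, -3.8 and -5.11. The measured log2 change was 1.42 (adjusted p = 0.016), and 0.96 at the lowest with an array left out. TGFB2 passed the filter only through the 80 nM group, where it is high, so this p is no independent support. Its log2 change was 0.41 with normexp and 0.47 in the authors' values, under the fold limit in both. With the spike-in scaling (1.06) and without 8 nM replicate 1 (1.21) the fold limit was passed, but the adjusted p was not under 0.05. TGFBR1, TGFBR2, SMAD4 and SMAD7 were not called. Of the 4 genes tied to glucocorticoid response, listed beside KLF9, 1 was up-regulated and 1 down-regulated at 80 nM, beside 18.8% and 16.3% of all genes. TSC22D3 rose by 0.76 (adjusted p = 0.00088). NR3C1, the receptor gene, was at least 1.80-fold lower, with a measured log2 change of -2.31 (adjusted p = 0.00081). It passed the filter only through the untreated group, where it is high, so this p is no independent support. The log2 change of NR3C1 was -0.36 with normexp, under the fold limit. FKBP5 and PER1 were not called. With the spike-in scaling the calls at 80 nM of HDAC1, FBXW7, TGFB1, TGFB3, SMAD2 and TSC22D3 ended, and their log2 changes were 0.32 to 0.54.

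Of the genes reported as KLF targets in other cells, 8 were tested; THBD, CDH1 and CCL5 were not well above background on any array. At 8 nM, 1 was up-regulated, beside 4.25% of all genes. At 80 nM, 2 were up-regulated and 1 down-regulated on the probes used, beside 18.8% and 16.3% of all genes. CDKN1A, the gene of the cell cycle inhibitor p21, rose by 1.82 with 8 nM (adjusted p = 0.00021) and 1.90 with 80 nM (adjusted p = 1.2e-05). S1PR1, a receptor gene activated by KLF2 in T lymphocytes, was -2.93, -2.84 and -2.96 without the drug, -3.02, -3.21 and -3.09 at 8 nM and -0.50, -0.65 and -0.57 at 80 nM. Its 80 nM arrays were far above the others, with the 8 nM arrays just below the untreated ones, and its log2 change was 2.34 (SE 0.08, adjusted p = 1.6e-07) at 80 nM and -0.20 at 8 nM (adjusted p = 0.13). NOS3, a further gene that KLF2 activates in endothelium, was 0.11 higher at 80 nM (adjusted p = 0.19). LGALS3 fell at 80 nM, with a log2 change of -2.08 (adjusted p = 5e-04), where 2 of 3 arrays were well above background; it was -0.81 with normexp and -1.17 in the authors' values. PDGFA was not called on its brighter probe, and on the other it was 0.61 higher at 8 nM (adjusted p = 0.011) and at least 1.57-fold lower at 80 nM (adjusted p = 0.00059, each probe tested by itself). CCND1, ODC1 and TXNRD2 were not called in any comparison.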

How the data were processed

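Expression was measured on 1-colour Agilent arrays in A2780 cells, 3 arrays per group, and samples were grouped from the labels. The authors extracted intensities with Agilent Feature Extraction 10.7.3.1, and the deposited processed intensity is background-subtracted but not scaled between arrays. The authors also deposited log2 values per probe, normalized between arrays, which served as an alternative.

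Controls and flagged outlier spots were removed, the spots of each probe averaged, and the log2 of each array's 75th percentile (831.7 to 1170) was subtracted. Probes had to be well above background on each of the 3 arrays of some group; probes with no usable spot on an array were dropped. Of a gene's probes, the one with the highest mean was used, and the others are given where they differ in a call. RefSeq gave current names to 25715 of the 27245 probes that carry its accessions. No column lacked a sample (0).

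A linear model over the 9 arrays with empirical Bayes (limma 3.58.1 in R 4.3.3) gave log2 changes, and p-values were adjusted by Benjamini-Hochberg over 21817 genes. The procedure was tested on simulated data. Figures were drawn with Python 3.11.15 and matplotlib 3.10.9. The genes and lists described were chosen with earlier results of these data known. All 10 KLF genes are named; the other genes named come from the lists, being those called in a comparison and some of the rest. An item of these lists is not reported here. The genes most like KLF2 and KLF6 are the 5 with the highest Pearson r.

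Deviations from the group means correlated between untreated and 8 nM arrays of the same replicate number (0.114, 0.101 and 0.163). With the 80 nM arrays the correlations were -0.124 to 0.016. The labels do not say what ties equal numbers together, so the main model had no block. Its p-values leave this correlation out, and the replicate number as a block was an alternative. The alternatives were normexp (offset 50) on the median spot signal, quantile normalization, scaling to the array median or the spike-in probes, the authors' values, no filter, a detection filter over 9 of 9 arrays, averaging a gene's probes, only the groups compared, the replicate number as a block, adjusted p in the call and each array left out. A block with only the groups compared was added after seeing the data. The precision of an array reading is limited by the 3 arrays per group.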

Additional observations from a re-analysis of the deposited data

How the results depend on the processing

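The counts of KLF genes called at 8 nM stayed at 0 in both directions under every alternative tried, and KLF2 was the 1 gene up-regulated at 80 nM under each of them, with a log2 change of 0.81 to 1.09 under the alternatives and 1.06 to 1.14 with an array left out. With the mean of the probes of a gene, 1 gene (KLF6) was down-regulated at 80 nM and 1 (KLF6) was lower at 80 nM than at 8 nM. With the spike-in scaling, 0 KLF genes were higher and 2 (KLF6 and KLF9) lower at 80 nM than at 8 nM. Of all 21817 genes tested, 1745 were called higher and 5865 lower with it. This scaling moves all genes by the same amount. Among others, the spike-in scaling turned the change between the concentrations of KLF7 (-0.299), KLF10 (-0.199), KLF13 (-0.09) and TGFB3 (-0.046). At 80 nM against untreated it turned that of KLF7 (-0.206), KLF10 (-0.145) and KLF11 (-0.195). The replicate number as a block left each count of KLF genes as it was and kept the log2 changes (-0.30 for KLF13 at 8 nM); the adjusted p of KLF13 at 8 nM became 0.06, that of CTBP2 at 8 nM 0.058 and that of KLF6 at 80 nM 0.05. Of 11 alternatives, 9 gave KLF13 at 8 nM an adjusted p that was not under 0.05 (up to 0.89). For KLF6 at 80 nM 5 of 11 did (up to 0.088). With each array left out, the adjusted p was 0.035 to 0.14 for KLF13 at 8 nM and up to 0.10 for KLF6 at 80 nM. Normexp lowered the all-gene counts at 8 nM from 927 up and 620 down to 468 and 274, and at 80 nM from 4101 and 3559 to 2314 and 2426. Slide could not be fitted as a block at 80 nM, since each slide held other groups. Dim probes, such as the second of KLF6, KLF4 and KLF5, are limited by the background.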
